A study of Rattus norvegicus with 6 samples.

Results

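The genes described here are 10 transcripts that are commonly used to recognise neurons. They are the cytoskeleton genes MAP2, TUBB3, STMN2, NEFL, NEFM, NEFH and DCX and the RNA-binding genes ELAVL3, ELAVL4 and RBFOX3. They were found by gene symbol in the expression matrix, and all 10 were present among its 17648 rows. The matrix held 6 RNA-seq libraries of cultures from the spinal cord of neonatal Sprague-Dawley rats, labelled spinal cord neurons and grown for 3 days before the injury model, with Ara-C added to raise the share of neurons. The Glu + siR-Con group (3 libraries) received a control siRNA (small interfering RNA), and the Glu + siR-GAL3 group (3 libraries) one against GAL3, the gene of galectin-3, listed as LGALS3. The injury model was a 1 h exposure to 10 μM glutamate followed by 16 h in glutamate-free medium. The sample names and the design text of the dataset put all 6 libraries under glutamate, whereas the treatment label of the control libraries reads saline and that of the GAL3 libraries reads knockout. A single siRNA was used against GAL3. If the treatment labels are right, the siRNA and the glutamate cannot be told apart in this comparison. The methods speak in general of independent repeated experiments but do not tie the 6 libraries to separate cultures or animals. The spread behind a p-value may thus be technical, and it is the spread left after a correction within groups, described below.

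Neurons carry a cytoskeleton that differs from that of glia. Class III beta-tubulin (TUBB3) enters their microtubules, MAP2 stabilizes microtubules in dendrites, doublecortin (DCX) binds microtubules in migrating and young neurons, stathmin-2 (STMN2) regulates microtubule growth in axons, and the light, medium and heavy neurofilament chains (NEFL, NEFM and NEFH) co-assemble into the intermediate filaments that set axon calibre. ELAVL3 and ELAVL4 are members of the Hu family that bind AU-rich elements in messenger RNA, and RBFOX3, the antigen of the NeuN antibody, is a splicing regulator of postmitotic neurons. Transcripts of the neurofilaments, STMN2 and TUBB3 are usually abundant in cultured neurons.

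RefSeq promoter sequences of assembly GRCr8 were on hand for 5 of the 10 genes (MAP2, TUBB3, ELAVL3, ELAVL4 and DCX), and 3 of them are shown. ELAVL3 and ELAVL4 are shown because these paralogues lay furthest apart in level among the RNA-binding members, and MAP2 because it was the highest member. Each sequence is the 250 bases before the annotated start, written 5′ to 3′ on the strand of the gene, and the capitals mark a GC box (GGGCGG) or the left half-site of the RE1 element (TTCAGCACC, here as its reverse complement GGTGCTGAA), both searched on both strands. The genome build of the expression data is not given in the sources used here, so these coordinates belong to the reference alone.
ELAVL3, chr8:28859014-28859263, minus strand: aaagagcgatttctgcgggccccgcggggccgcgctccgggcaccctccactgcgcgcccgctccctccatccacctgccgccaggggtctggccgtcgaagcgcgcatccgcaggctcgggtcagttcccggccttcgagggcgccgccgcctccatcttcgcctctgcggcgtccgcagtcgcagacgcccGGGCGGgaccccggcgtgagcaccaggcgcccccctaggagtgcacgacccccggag
ELAVL4, chr5:130367664-130367913, minus strand: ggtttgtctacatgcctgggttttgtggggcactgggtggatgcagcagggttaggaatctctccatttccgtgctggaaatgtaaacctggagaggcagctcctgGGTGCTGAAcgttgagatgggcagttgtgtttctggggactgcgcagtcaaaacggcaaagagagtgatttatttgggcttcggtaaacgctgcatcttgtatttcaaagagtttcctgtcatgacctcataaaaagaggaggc
MAP2, chr9:75346440-75346689, plus strand: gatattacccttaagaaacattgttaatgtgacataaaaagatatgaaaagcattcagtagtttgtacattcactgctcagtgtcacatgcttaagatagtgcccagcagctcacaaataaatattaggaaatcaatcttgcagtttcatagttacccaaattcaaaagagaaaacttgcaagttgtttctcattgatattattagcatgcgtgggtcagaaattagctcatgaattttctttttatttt

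The ELAVL3 sequence held 35 CG dinucleotides and 1 GC box, and that of ELAVL4 held 6 CG dinucleotides, no GC box and 1 RE1 left half-site, a motif present in 0.305% of the 33469 promoters of this length. A GC box was present in 30.5% of those promoters. The MAP2 sequence held 1 CG dinucleotide and neither motif. TUBB3, with 21 CG dinucleotides and 2 GC boxes, and DCX, with 2 and none, completed the set. The number of CG dinucleotides did not follow the level of the genes, since MAP2 had the fewest and the highest level. A match describes letters only and says nothing of binding.

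Levels below are linear expression values that go back to FPKM, a measure of fragments scaled to transcript length and library size, and that were then adjusted for batch, standardized and corrected among the libraries of a group before deposit. FPKM is per length, and on that ground the levels of different genes are set side by side below. Whether this scaling held through the later adjustment is not known, so ratios and shares between genes are descriptions of the deposited values. Sequencing depth is unknown. An SD, a p-value or a lack of overlap rests on the spread that the adjustment left. The correction within groups could make differences between groups look firmer than they were, which was not tested. Column totals lay between 64313 and 64714. Exactly equal values divided the libraries into 3 sets, siR-Con replicate 1 with siR-GAL3 replicate 1 (set 1), siR-Con replicates 2 and 3 with siR-GAL3 replicate 3 (set 2), and siR-GAL3 replicate 2 alone. None of the 60 values of the 10 genes was below 0, and none of the 10 genes had the same value in any pair of libraries. LGALS3, the targeted gene, spanned 54.4 to 77.4 in siR-Con and was -1.64, 32.3 and 18.5 in siR-GAL3, without overlap. The knock-down was thus uneven. Values of single genes are given in the order of replicates 1, 2 and 3.

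The neuronal genes fell into 3 tiers of level, and most were low. MAP2 had a mean of 16.9 over the 6 libraries, ELAVL3 of 9.10 and TUBB3 of 4.63. STMN2 followed at 1.06, near the median of all rows, 0.909. The other 6 genes were below it, NEFM at 0.594, DCX at 0.445, RBFOX3 at 0.383, NEFL at 0.343, ELAVL4 at 0.264 and NEFH at 0.0154. In rank among all rows, MAP2 stood at the 96.8th percentile and NEFH at the 14.9th. MAP2 and ELAVL3 together made up 77.1% of the summed level of the 10 genes. The order of the first 4 genes held in all 6 libraries with no overlap of their ranges from MAP2 down to STMN2. From STMN2 to ELAVL4, neighbours in the order had overlapping ranges, and RBFOX3 and NEFL, like NEFL and ELAVL4, changed places in 1 of the 6 libraries. NEFH lay below ELAVL4 in every library, with means 17.2 times apart.

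**Figure D1:**
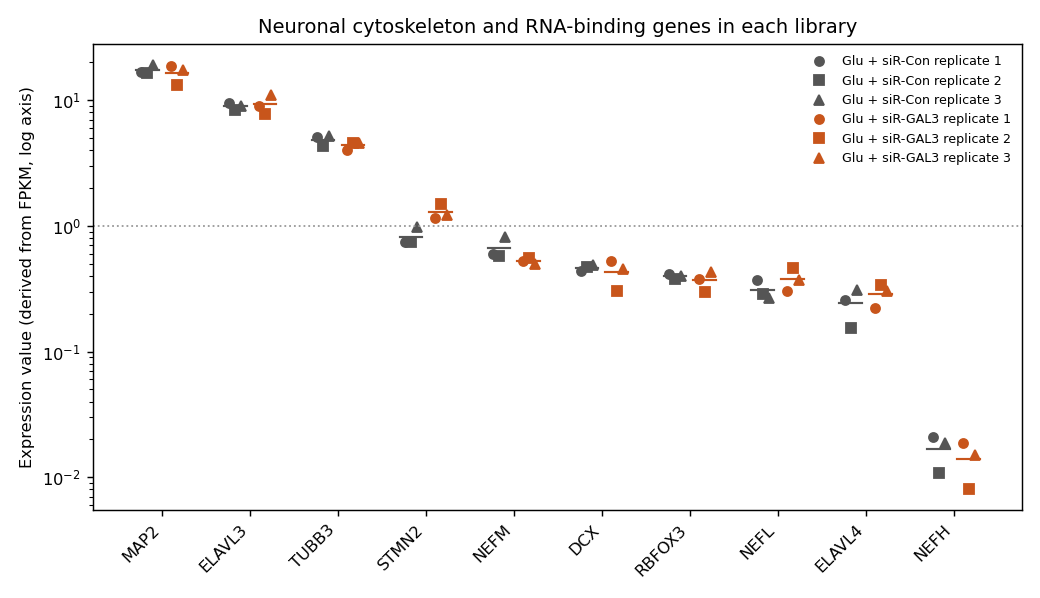
Expression value (derived from FPKM, log axis) of the 10 neuronal genes in each of the 6 libraries; symbols are replicates, horizontal bars are group means (n = 3) and the dotted line marks a value of 1. MAP2, ELAVL3 and TUBB3 lie above 4 in every library, whereas 6 genes lie below 1 in every library, and STMN2 is the gene whose groups part upwards.

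The labelled cell type was checked against marker lists of the cells such a culture could hold. The median of the gene means was 0.519 for the 10 neuronal genes and 0.210 for the 9 other neuronal markers present, the highest of which was the synaptic vesicle calcium sensor SYT1 with a mean of 1.89. It was 26.9 for the 10 astrocyte markers, 16.8 for the 11 markers of the oligodendrocyte lineage and 5.11 for the 12 of microglia and macrophages. GFAP, the astrocyte intermediate filament, had a mean of 589.6 and MBP, a myelin protein, of 713.02. The complement gene C1QC, from microglia, had a mean of 35.7, the fibroblast collagen COL1A1 of 16.7, the progenitor factor SOX2 of 17.3 and the endothelial cadherin CDH5 of 0.878. None of the markers on these lists was listed at 0 or below in any library. GFAP exceeded every one of the 10 neuronal genes in every library, and its level was between 1161 and 2239 times that of NEFL. The neuronal genes did not go one way in this check. RBFOX3, NEFL, NEFM, NEFH, DCX and ELAVL4 lay below the median row, whereas MAP2, ELAVL3 and TUBB3 stood at the 96.8th, 92.8th and 84.2nd percentile. The 28 other neuronal cytoskeleton genes, some of which glia also express, had a median of 7.94. GFAP and MBP were among the 10 highest rows of the matrix. In bulk RNA, fewer cells of a type and less RNA per cell cannot be told apart.

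**Figure D2:**
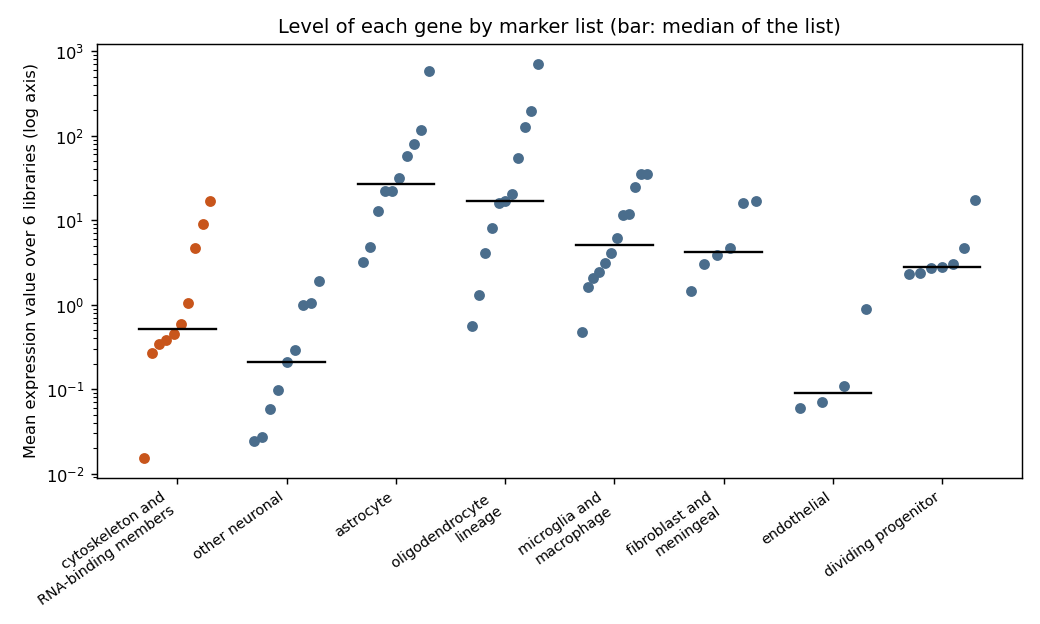
Mean expression value over the 6 libraries (log axis) of each gene in the neuronal set (orange) and in 7 marker lists (blue), with the black bar at the median of each list. The neuronal set has a median of 0.519 against 26.9 for astrocyte and 16.8 for oligodendrocyte lineage markers, and only the endothelial and the other neuronal lists have lower medians.

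Summed over each list, astrocyte markers ranged from 956.1 to 1094 in siR-Con and from 826.2 to 893.2 in siR-GAL3, and fibroblast markers from 48.4 to 55.1 and from 35.3 to 43.6. Both lists were lower in siR-GAL3 without overlap, but the astrocyte sum rested on GFAP, and the other 9 astrocyte markers summed to between 336.6 and 385.04 in siR-Con and between 311.4 and 370.2 in siR-GAL3, which overlapped. Microglial markers ranged from 112.4 to 133.9 and from 143.9 to 163.02, and other neuronal markers from 3.94 to 4.31 and from 4.76 to 5.35, both higher in siR-GAL3 without overlap. The oligodendrocyte lineage (1070 to 1144 and 1081 to 1405), endothelial (1.02 to 1.22 and 1.08 to 1.12) and progenitor lists (35.1 to 38.8 and 32.1 to 36.3) overlapped. The 10 neuronal genes summed to between 31.7 and 36.4 in siR-Con and between 28.9 and 36.3 in siR-GAL3, which also overlapped. At an unadjusted limma p under 0.05, 4 of 10 astrocyte and 3 of 6 fibroblast markers tested were lower, against 4.25% of all genes tested, and 5 of 11 microglial markers were higher, against 4.41%. Of the 2 other neuronal, 10 oligodendrocyte lineage and 7 progenitor markers tested 0 passed. No endothelial marker was tested. In the limma fit without a filter 3 of the 10 astrocyte markers had an unadjusted p under 0.05, against 9.2% of all rows. GFAP was not among them (unadjusted p = 0.116). GAD1, which makes the transmitter GABA, was just under the filter with a mean of 0.988 and is named after its values were seen. It was 0.806, 0.754 and 0.878 in siR-Con and 1.14, 1.19 and 1.17 in siR-GAL3, without overlap. Its log2 fold change without a filter was 0.26 (unadjusted p = 0.00285, adjusted p = 0.311 in limma), and its unadjusted p was under 0.05 in 9 of 9 fits. The part that these other cell types had in the results below was not tested.

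The comparison of Glu + siR-GAL3 with Glu + siR-Con asks what knock-down of GAL3 does in the injury model. For the test, log2(value + 1) was fitted with limma for the 8495 genes whose mean reached 1, a scale on which the fold of a low gene comes out too small. Only 4 of the 10 neuronal genes passed this filter, MAP2, ELAVL3, TUBB3 and STMN2, and the mean of STMN2 reached 1 only through the siR-GAL3 group, where it was high. At an unadjusted p under 0.05, 1 of the 4 was called, STMN2, against 8.66% of all genes tested (4.41% higher and 4.25% lower in siR-GAL3). No gene in the matrix had a Benjamini-Hochberg adjusted p under 0.05 (0% called), so none of the 4 did. The targeted LGALS3 did not either (unadjusted p = 0.0462, adjusted p = 0.571 in limma). The lack of adjusted calls therefore says little about the neuronal genes. None of the 4 had an absolute log2 fold change above 1 with an unadjusted p under 0.05, as 0.318% of the genes tested had. The median log2 fold change of the 4 was -0.02, with 2 higher and 2 lower, against -1.19e-05 over all genes tested. For the 6 genes under the filter the same fit was made without it, over all 17648 rows. In that fit 4 of the 10 neuronal genes were higher and 6 lower, with a median of -0.02, and STMN2 was again the only 1 with an unadjusted p under 0.05, against 9.2% of all rows (5.03% higher and 4.17% lower). None of the 10 had an absolute log2 fold change above 1 with an unadjusted p under 0.05 there, as 0.204% of all rows had.

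STMN2, the stathmin of growing axons, was 0.739, 0.746 and 0.980 in siR-Con. The siR-GAL3 values were 1.15, 1.498 and 1.23. Each siR-GAL3 library lay above each siR-Con library. Means were 0.822 ± 0.137 and 1.29 ± 0.184 (SD, n = 3 each), so that siR-GAL3 was 57.1% higher, and the log2 fold change was 0.33. Without the filter, which STMN2 passed only through its higher group, the limma fit gave an SE of 0.09, an unadjusted p of 0.0110 and an adjusted p of 0.384. With the filter the unadjusted p was 0.00597 and the adjusted p 0.324. The exact permutation test of the values gave a two-sided p of 0.1, the smallest that 3 against 3 allow. Within set 1 the difference on the log2(value + 1) scale was 0.30 and within set 2 it was 0.26. Over 9 fits without a filter the unadjusted p lay between 0.00974 and 0.0431 and the adjusted p between 0.290 and 0.849. Over all 22 fits on the log2 scale the unadjusted p lay between 0.00490 and 0.0431 and the adjusted p between 0.113 and 0.861. The other neuronal markers and the microglial markers were higher in the same libraries, as given above.

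The other stathmins of the matrix were looked at after the values of STMN2 had been seen. STMN4, also enriched in neurons and the member of the wider cytoskeleton list with the smallest p, was 34.4, 32.8 and 30.4 under siR-Con and 37.6, 41.6 and 46.6 under siR-GAL3. It did not overlap between the groups, and its log2 fold change was 0.35 (unadjusted p = 0.00839, adjusted p = 0.357 in limma). Its unadjusted p was under 0.05 in 22 of 23 log2 fits and 0.0574 in the other. STMN3 ranged from 1.35 to 1.46 in siR-Con and from 1.48 to 2.01 in siR-GAL3, also without overlap, with an unadjusted limma p of 0.0975 and an adjusted p of 0.586. STMN1, found in many dividing cells, overlapped between the groups, with 15.7 to 16.6 in siR-Con and 15.8 to 23.1 in siR-GAL3. By level STMN4 was the main stathmin, 35.3 times STMN2 over the 6 libraries.

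The neurofilament genes were low, and none passed the test. NEFM, the medium chain, was 0.601, 0.574 and 0.811 in siR-Con, and siR-GAL3 gave 0.524, 0.559 and 0.493. Every siR-GAL3 library was below every siR-Con library, with means of 0.525 ± 0.0326 against 0.662 ± 0.130 (SD, n = 3 each). The siR-Con replicate 3 value stood above the others, and the log2 fold change without the filter, -0.12 (SE 0.06), had an unadjusted limma p of 0.109 and an adjusted p of 0.616. NEFL was 0.374, 0.285 and 0.266 in siR-Con and 0.301, 0.460 and 0.374 in siR-GAL3, which overlapped. NEFH was at most 0.0210 in any library, and no difference could be read at that level. NEFM and STMN2 were the 2 genes of the 10 whose groups did not overlap, 1 in each direction, against 16.9% of all 17648 rows (9.01% higher and 7.86% lower). Among the genes tested, 20.5% did not overlap, 10.3% in each direction.

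In axons the 3 neurofilament chains assemble together. The ratio of NEFM to NEFL lay between 1.61 and 3.05 in siR-Con and between 1.22 and 1.74 in siR-GAL3. The groups overlapped, and on the log2(value + 1) scale the exact permutation p was 0.2 (0.35 adjusted over 7 ratios). The light chain was between 14.3 and 56.5 times as high as NEFH in single libraries. Together the 3 neurofilament genes made up between 0.109% and 0.154% of the summed level of 8 intermediate filament genes, of which GFAP alone took between 79.2% and 83.2%. Alpha-internexin (INA), another neuronal filament, was 3.25 times NEFL. The last comparisons, with family totals, were chosen after the values were seen.

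The microtubule genes MAP2, TUBB3 and DCX overlapped between the groups. MAP2 was 16.9, 16.4 and 19.0 in siR-Con, and its siR-GAL3 values were 18.9, 13.1 and 17.4. The lowest value was that of siR-GAL3 replicate 2, and the log2 fold change of -0.09 (SE 0.14, unadjusted p = 0.521 in limma) turned to 0.05 without that library. TUBB3 was 5.08, 4.33 and 5.19 in siR-Con and 4.03, 4.59 and 4.58 in siR-GAL3, a log2 fold change of -0.12 (SE 0.09, unadjusted p = 0.214 in limma). It was lower in siR-GAL3 within both sets, by values of -0.27 and -0.04 on the log2 scale. DCX was 0.435, 0.471 and 0.487 in siR-Con and 0.523, 0.302 and 0.453 in siR-GAL3, so that siR-GAL3 held both the highest and the lowest library.

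MAP2, at 16.9, was above the broadly expressed MAP4, at 13.5, whereas TUBB3 was a minor form in its family. It made up between 1.51% and 1.95% of the summed level of 7 beta-tubulin genes, and the widely expressed TUBB5 was 18.1 times as high. Tubulin genes are close in sequence, and reads shared between copies could have been divided by the counting, so these shares are uncertain. The ratio of STMN2 to TUBB3 was 0.169 ± 0.0218 in siR-Con and 0.293 ± 0.0301 in siR-GAL3 (SD, n = 3 each) with no overlap, and the exact permutation p on the log2(value + 1) ratio was 0.1 (0.35 adjusted over 7 ratios). The ratio of MAP2 to TUBB3 was 3.60 ± 0.243 and 3.78 ± 0.917 (SD, n = 3 each), and the permutation p was 0.8. DCX, of young neurons, to RBFOX3, of mature ones, was 1.17 ± 0.102 and 1.15 ± 0.203 (SD, n = 3 each), with an exact permutation p of 0.9.

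Among the RNA-binding genes, ELAVL3 stood apart from its paralogues. It was 9.43, 8.35 and 8.98 in siR-Con against 9.04, 7.81 and 11.02 in siR-GAL3, which held both extremes. Its log2 fold change was 0.04 (SE 0.12, unadjusted p = 0.733 in limma) and turned to -0.08 without siR-GAL3 replicate 3. ELAVL4 was 0.259, 0.155 and 0.311 in siR-Con and 0.221, 0.340 and 0.301 in siR-GAL3. ELAVL3 was between 22.98 and 53.99 times ELAVL4 in single libraries, the pair whose promoters are printed above, and made up between 72.3% and 81.1% of the 4 ELAVL genes, with the ubiquitous ELAVL1 next at a mean of 2.21. The ratio of ELAVL4 to ELAVL3 did not part the groups (exact permutation p = 0.9). RBFOX3 was 0.411, 0.378 and 0.400 in siR-Con and 0.379, 0.300 and 0.429 in siR-GAL3, with means of 0.396 ± 0.0172 and 0.369 ± 0.0652 (SD, n = 3 each). Its log2 fold change without the filter was -0.03 (SE 0.04, unadjusted p = 0.494 in limma).

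**Figure D3:**
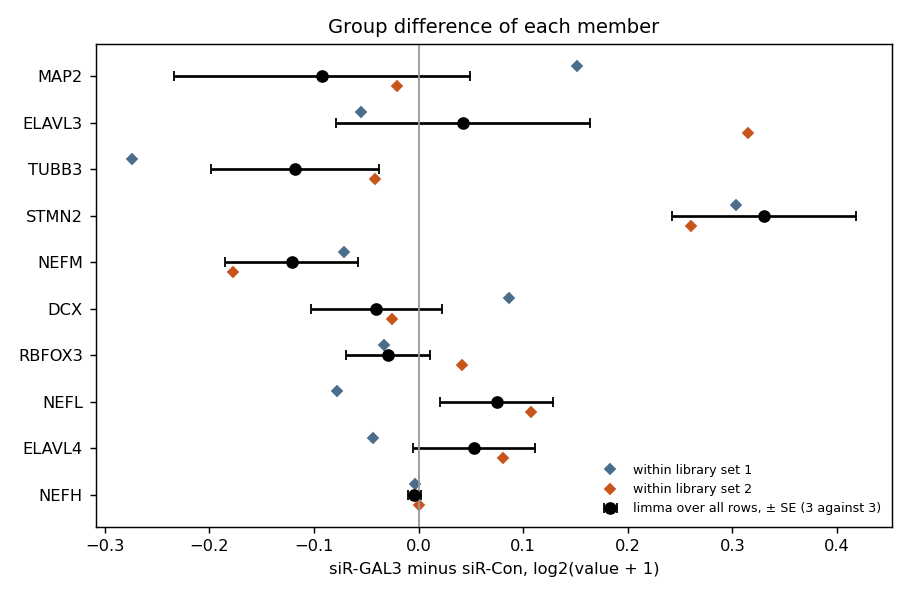
Difference between Glu + siR-GAL3 and Glu + siR-Con on the log2(value + 1) scale for each of the 10 genes, as the limma estimate over all rows with its SE (black, 3 libraries a group) and as the difference within set 1 (blue) and set 2 (orange). STMN2 is higher in both sets, at 0.30 and 0.26, TUBB3 and NEFM are lower in both, and the other 7 genes have opposite signs in the sets. Each set held a single siR-GAL3 library, and the share of all rows with the same sign in both was not computed.

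The difference of each gene was also read within the sets of libraries. In 3 of the 10 genes, STMN2, TUBB3 and NEFM, the difference had the same sign within both sets that held both groups, and in 7 the signs were opposite. Each of these sets held a single siR-GAL3 library, and the share of all rows with the same sign in both was not computed. The count is therefore a description only. ELAVL3, for example, differed by -0.05 in set 1 and by 0.32 in set 2. The library alone in its set, siR-GAL3 replicate 2, was the lowest for 5 of the 10 genes (MAP2, ELAVL3, DCX, RBFOX3 and NEFH) and the highest for 3 (STMN2, NEFL and ELAVL4). It was the lowest or the highest library in 65.05% of all rows, so the 8 of 10 genes were read beside that share. MAP2 and DCX followed each other with r = 0.95 over the 6 libraries, NEFL and DCX had r = -0.88, and over the 45 pairs the median r was 0.13. These correlations are given as a description, since the points share the authors' correction and the low values of siR-GAL3 replicate 2.

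**Figure D4:**
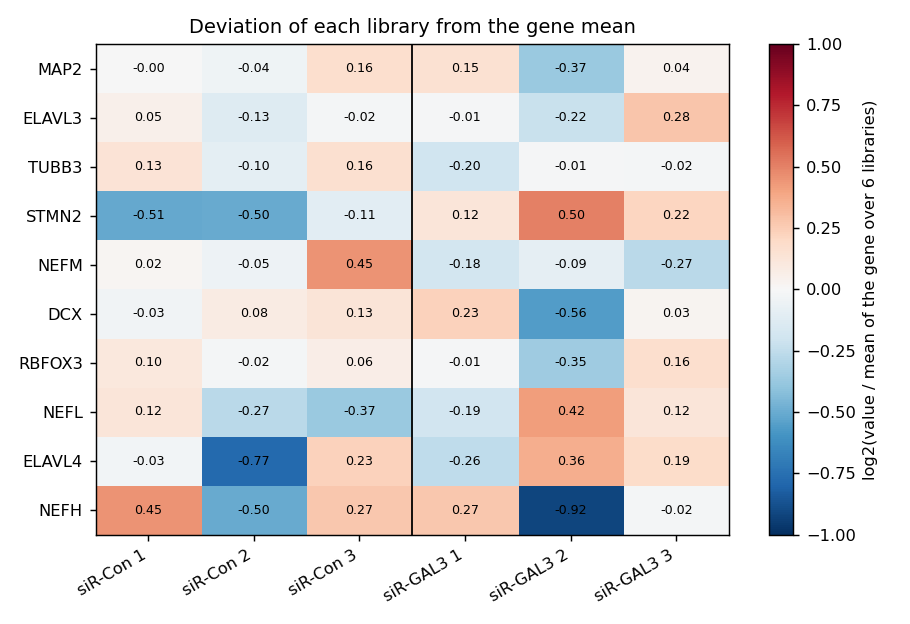
Deviation of each library from the mean of the gene over the 6 libraries, as log2(value / mean), for the 10 genes from highest to lowest level; red is above and blue below the mean, and the line parts siR-Con from siR-GAL3. STMN2 is below its mean in all 3 siR-Con libraries and above it in all 3 siR-GAL3 libraries, and siR-GAL3 replicate 2 ranges from -0.92 for NEFH to 0.50 for STMN2.

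The genes that best followed the mean z-score of the 10 were HNRNPF, DAZAP1 and INSIG1. The 10 genes did not share a single pattern, with a median r of 0.13 over their pairs. With many candidates and few libraries a high r can arise by chance. Likeness was Pearson's r over the 6 libraries with the mean z-score of the 10 genes, among 2598 other genes with a mean of at least 5, and was 0.96, 0.95 and 0.95. The lowest mean z-scores, -0.59 and -0.46, belonged to replicate 2 of either group and the highest, 0.49, to siR-Con replicate 3, so that it did not part the groups.

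Of 28 other neuronal cytoskeleton genes, 24 were tested, 7 higher and 17 lower, with a median log2 fold change of -0.16. At an unadjusted p under 0.05, 1 was higher, STMN4, and 2 were lower, DCLK1, a relative of doublecortin, and TUBB2B, a neuronal beta-tubulin. Of all genes tested, 4.41% were higher and 4.25% lower at that threshold. DCLK1 fell from 24.4 ± 1.62 to 19.5 ± 2.06 and TUBB2B from 70.1 ± 2.87 to 56.0 ± 8.62 (SD, n = 3 each), both without overlap. Among all genes tested, 10.3% were lower without overlap. None of the 24 reached an adjusted p of 0.05. siR-GAL3 replicate 2 was the lowest library for 18 of the 28 genes, against 28.4% of all rows. Without it the median was -0.01, and with the set as a block it was -0.01 as well. These are not separate checks, since the block takes that library, alone in its set, out of the contrast. The size of the lower median thus rested on that library.

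Of 16 other neuronal RNA-binding genes, 7 were tested, 1 higher and 6 lower, with a median log2 fold change of -0.09. PTBP2, a neuronal splicing repressor, fell from 5.71 ± 0.123 to 4.77 ± 0.377 (SD, n = 3 each). It was the 1 gene of the list with an unadjusted limma p under 0.05 (0.0191, adjusted 0.488). Of all genes tested, 4.25% were lower at that threshold. CELF3 and CELF2 followed, with log2 fold changes of -0.17 and -0.35 and unadjusted p of 0.0525 and 0.0991 in limma. Neither overlapped between the groups, and 10.3% of all genes tested were lower without overlap. CELF2 was 5.88, 3.20 and 5.50 in siR-GAL3, and differed by -0.01 within set 1 and -0.20 within set 2. siR-GAL3 replicate 2 was the lowest or highest library for 100% of the tested genes of the list, against 76.7% of all genes tested. Without it the median was -0.12. The other 9 had means under 1, as had most of the 10 genes described here.

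The 14 broadly expressed relatives were all tested, 3 higher and 11 lower, with a median log2 fold change of -0.15. The list was not made up of broadly expressed genes alone. It held GFAP, also on the astrocyte list, and NES, also on the progenitor list, so GFAP is counted in both of its lists. At an unadjusted p under 0.05, 1 was higher and 4 were lower, against 4.41% and 4.25% of all genes tested. None of the 14 had an adjusted p under 0.05. TUBB6, a beta-tubulin of non-neuronal cells, fell, with means of 18.6 ± 0.505 in siR-Con and 14.2 ± 0.476 in siR-GAL3 (SD, n = 3 each). Its log2 fold change was -0.37 (unadjusted p = 0.000678, adjusted p = 0.149 in limma). With the library set as a block its adjusted p was 0.0229 and without siR-GAL3 replicate 2 it was 0.0166. In the same settings with no filter on low values the adjusted p of TUBB6 was 0.295 and 0.155. Both settings take that library out of the contrast, so they are not separate checks. Over 23 log2 fits the adjusted p lay between 0.0166 and 0.733 and was under 0.05 only in those 2 settings with the filter. GFAP was lower in siR-GAL3, at 523.7 ± 9.35 against 655.4 ± 94.6 (SD, n = 3 each), and TUBA1C, an alpha-tubulin, was higher, at 1.76 ± 0.187 against 1.40 ± 0.0493 (SD, n = 3 each). Their unadjusted limma p were 0.0243 and 0.0256, and their adjusted p 0.510 and 0.516. In the limma fit without a filter the unadjusted p was 0.116 for GFAP and 0.0292 for TUBA1C. Whether the neuronal and the broadly expressed lists differed from each other was not tested.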

How the data were processed

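RNA of 6 libraries, 3 per group, was analysed. The authors mapped reads with STAR, counted them per gene with HTSeq and estimated FPKM, after which batch adjustment, standardization and a within-group correction were applied with tools not given in the sources used here. What was deposited is thus an expression score, linear and FPKM-based, with 3.86% of values below 0, and it was not treated as FPKM. The supplement describes poly-T selection and the labels ribosomal depletion. Reads were not recovered, so depth is unknown and no counting error is given. FPKM was assumed when the tests were planned.

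Values below 0 were set to 0 and log2(value + 1) was fitted with limma 3.58.1 (R 4.3.3) with an intensity trend to the 8495 genes whose mean reached 1. A second rule, an absolute log2 fold change above 1 with an unadjusted p under 0.05, follows the methods for public datasets. For the sequenced libraries the supplement describes DESeq on counts with an adjusted p under 0.05, which was not run here because the matrix holds no counts. Adjusted p-values are Benjamini-Hochberg values over all genes tested. Single genes and ratios were compared with exact two-sided permutation tests in Python 3.11.15. The fit was tested on simulated data. Groups follow the sample names. The 10 genes and the lists were chosen with earlier results of these data known. Genes named were the 10, LGALS3, the 3 smallest p of each wider list, the highest gene of each marker list and the 3 most alike. INA, TUBB5, MAP4, GAD1, ELAVL1, STMN1 and STMN3 were chosen after their values were seen. Alternatives covered the pseudocount, filter, scaling, trend, replicate and set blocks, transformation and each library left out. The set block takes siR-GAL3 replicate 2, alone in its set, out of the contrast. It is therefore not a check separate from leaving that library out. The block fits and left-out libraries without a filter, and marker sums without the highest gene, were chosen after seeing the data.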

Additional observations from a re-analysis of the deposited data

How the results depend on the processing

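Depth is unknown and 6 of the 10 genes lay under a value of 1, which limits what a difference in them can show. STMN2 kept its direction and an unadjusted p under 0.05 in all 9 log2 fits without a filter. The same held in all 22 log2 fits that tested it. The others of these used the filter that STMN2 passed only through its higher group, and all fits drew on the same 6 libraries. No fit gave any of the 10 genes an adjusted p under 0.05. For results that changed, the cause was not tested except where fewer genes or libraries entered.

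Over all genes, 736 had an unadjusted p under 0.05. The count was 1623 with no filter, 260 at a mean of at least 5, 1174 when library sets were blocked, and 344 to 1388 when 1 library was left out (1388 without siR-GAL3 replicate 2). The count at an adjusted p under 0.05 was 0, against 106 with the set as a block and 0 to 167 when 1 library was left out (167 without siR-GAL3 replicate 2). Of the neuronal genes tested, the count of 1 became 0 at a mean of at least 5, where STMN2 was not tested. The wider cytoskeleton count of 3 was 6 with the set as a block and 1 to 7 with a library left out. The wider RNA-binding count of 1 was 2 with the set as a block, 2 on values not log-transformed and 0 to 3 with a library left out. The count of 5 among broadly expressed relatives was 1 to 8 with a library left out. The number of neuronal genes whose groups did not overlap, 2, was 2 to 4 with a library left out (4 without siR-Con replicate 2). The number of the 7 ratios whose groups did not overlap was 2, against 1 with no pseudocount and 2 to 4 with a library left out. The 2 were STMN2 to TUBB3 and NEFH to NEFM. NEFH to NEFM parted the groups only with the pseudocount (exact permutation p = 0.1, and 0.9 without it). With fewer libraries a lack of overlap is easier to reach for any gene or ratio. The share of all rows without overlap was not computed in those settings, so a rise in these counts cannot be read.

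Same-numbered libraries correlated by -0.17, -0.07 and 0.04 in their deviations from the group means. The values had been adjusted for batch and within groups before deposit, so these correlations cannot show whether replicate numbers pair the libraries. The replicate 1 libraries shared set 1 and the replicate 3 libraries set 2, whereas those of replicate 2 lay in different sets. With the replicate number as a block, 6 genes had an adjusted p under 0.05, the RNA-binding count was 0 and that of the relatives 3.

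The direction turned for 5 genes, none of them called. MAP2 was 0.0527 with the set as a block and ranged from -0.193 to 0.0547 with a library left out, and ELAVL3 ranged from -0.0755 to 0.149. In fits without a filter, which were chosen after seeing the data, RBFOX3 was 0.00928 with the set as a block and 0.00782 without siR-GAL3 replicate 2, DCX was 0.0226 and 0.0233, and NEFH was 9.58e-05 without that library. The median over the 4 neuronal genes tested was 0.10 with the set as a block and 0.10 without siR-GAL3 replicate 2. Since the block takes that library out of the contrast, these settings are not separate checks. List medians were not computed on values not log-transformed.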
